A study of Caenorhabditis elegans with 18 samples.

Results

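Oxfendazole (OxBZ) and mebendazole (MBZ) were compared gene by gene in whole Caenorhabditis elegans, as the 3 oxfendazole libraries against the 3 mebendazole libraries over every gene of the count table. These are 6 of the study's 18 RNA sequencing libraries, and the table lists 20395 gene identifiers, of which 17484 had enough reads to be tested. Both drugs are benzimidazole methyl carbamates. They differ in the side chain on the fused ring, which is phenylsulfinyl in oxfendazole and benzoyl in mebendazole. Both were given at 1.13 mM in DMSO for 4 h at 20 °C, so that dose and time were matched and 1 pair of compounds was compared. The 3 DMSO libraries are given beside them as the solvent level.

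All groups, the DMSO group included, were worms of the ben-1 mutant strain CB3474, with the allele e1880. The growth protocol describes about 70 h of liquid culture from the first larval stage to the adult on Escherichia coli OP50, whereas the source label describes mixed larval stages, and transcripts of yolk genes and of molting genes were both present in every library. The labels speak of biological replicates and do not tell whether separate cultures received each drug. A p-value here therefore reflects only how far libraries spread, and that spread was estimated over all 18 libraries of the study. Between the counts of oxfendazole replicates 1 and 2 the chi-square per gene was 4.996. It was 42.96 and 36.56 for replicate 3 against replicates 1 and 2, and 45.94, 168.3 and 92.85 for the mebendazole pairs. Oxfendazole replicates 1 and 2 were thus far closer than any other pair within the drug groups. Whether they came from separate cultures was not tested.

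Benzimidazoles kill parasitic and free-living nematodes by binding beta-tubulin and blocking the growth of microtubules, and ben-1 encodes the beta-tubulin through which C. elegans is sensitive to them. Mutants of ben-1 move and grow at drug levels that paralyse wild-type worms. Cytochromes P450, short-chain dehydrogenases and flavin monooxygenases oxidise or reduce foreign compounds such as these, UDP-glucuronosyltransferases (UGTs) and glutathione S-transferases (GSTs) attach a sugar or glutathione, and ABC transporters carry the products out. A separate set of genes responds to damaged proteins, among them the cytosolic chaperones and the proteasome, the particle that degrades ubiquitin-tagged proteins.

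The 6 libraries held 59021903 to 67277284 counted reads, so that 1 read was at most 0.0169 CPM (counts relative to the library total) before scaling. All levels below are CPM after scaling by trimmed-mean (TMM) library factors, which shifts the worth of 1 read slightly. Differences are log2 values of oxfendazole minus mebendazole, written as the value ± its standard error (SE, 3 libraries a group), and a gene is called where edgeR's quasi-likelihood test gave an adjusted p under 0.05 over all 17484 genes. On the first principal component of the 6 libraries, with 68.0% of the variance, the oxfendazole libraries lay at 47.6 to 71.5 and the mebendazole libraries at -67.5 to -57.2. Oxfendazole replicate 3 stood apart on the second component, with 14.2% of the variance, at -57.5 against 27.1 and 20.0 for replicates 1 and 2. The ben-1 transcript was present in every library, at 52.8, 50.6 and 57.9 CPM under oxfendazole and 51.2, 49.8 and 55.2 CPM under mebendazole, and differed by 0.05 ± 0.10 between the drugs (95% interval -0.16 to 0.25).

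Genes higher under oxfendazole numbered 3899, or 22.3% of those tested, and genes lower numbered 3520, or 20.1%. The rises were mostly small and in genes with many reads, with a median difference of 0.37 among called genes and a median mebendazole level of 59.8 CPM. The falls were larger and in genes with fewer reads, with a median difference of -1.11 and a median level of 5.96 CPM. These levels are counts not divided by gene length. Called differences over 2-fold numbered 315 upward and 2000 downward, and 22 of the latter had no read under oxfendazole, so that their fitted size depends on the model's offset. The median of all genes was -0.14. The split of calls depended on the scaling: with library totals alone, 2074 genes were higher and 4075 lower, the median of all genes was -0.28, and 33.7% of calls were rises against 52.6% with TMM factors. Without oxfendazole replicate 3, the library that stood apart, 3890 genes were higher and 3532 lower. A test against a difference of 2-fold called 102 genes higher and 250 lower.

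**Figure D1:**
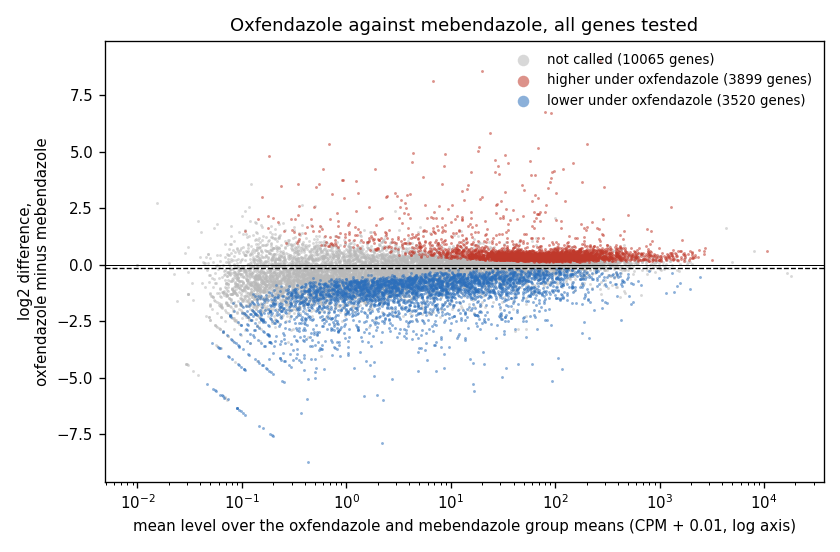
Log2 difference of oxfendazole minus mebendazole (vertical axis) against the mean of both group means in CPM plus 0.01 (horizontal log axis) for 17484 genes. Red points are the 3899 genes higher under oxfendazole, blue points the 3520 lower and grey points those not called, and the dashed line is the median of all genes, -0.14; red points crowd at small differences in genes with many reads and blue points reach further down in genes with few.

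Set against DMSO, each drug gave a different number of calls. Oxfendazole raised 3715 genes, 21.2% of those tested, and lowered 3751, 21.5%. Mebendazole raised 218 genes, 1.25%, and lowered 41, 0.235%. The contrasts with DMSO share the solvent libraries, which varied more among themselves than either drug group, with a biological coefficient of variation of 0.452 against 0.212 for oxfendazole and 0.174 for mebendazole. Values against DMSO are therefore given only beside the direct comparison of the drugs. The solvent libraries also entered the SE, interval and p-value of the direct comparison, since the spread was estimated over all 18 libraries.

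Cytochromes P450 formed the clearest split of the detoxification genes, with 34 of 74 higher and 11 lower under oxfendazole (45.9% and 14.9%). The shares over all genes were 22.3% and 20.1%, and the median difference of the P450 genes was 0.50. Of the called members, 24 were over 2-fold higher and 7 over 2-fold lower. The summed P450 share of counts was 0.293% ± 0.0149 (SD, n = 3) under oxfendazole and 0.304% ± 0.0386 (SD, n = 3) under mebendazole, and the groups overlapped. An exact two-sided permutation test gave p = 0.7 (0.817 adjusted over 7 lists whose shares were compared), and with 3 against 3 libraries it cannot go below 0.1, so it shows neither a difference nor likeness. Both lay above the 0.0714% to 0.0928% of the DMSO libraries. P450 genes at equal or lower levels under oxfendazole, such as cyp-35C1, cyp-13A6 and cyp-35A2, stood beside the many that were higher.

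The largest P450 difference was that of cyp-13A12, at 54.5, 37.1 and 47.8 CPM in oxfendazole replicates 1 to 3 and 1.01, 0.982 and 0.454 CPM under mebendazole, a difference of 5.83 ± 0.75 with an adjusted p of 5.5e-05 by edgeR. The mebendazole libraries lay in and below the range of DMSO (3.09, 5.27 and 0.616 CPM), and the drug groups did not overlap. The related gene cyp-13A8 stood at 10.3, 7.28 and 7.66 CPM against 0.356, 0.114 and 0.352 CPM, a difference of 4.94 ± 1.27. cyp-13A6 went the other way, at 131, 107 and 109 CPM under oxfendazole and 471, 374 and 479 CPM under mebendazole, a difference of -1.93 ± 0.43 with an adjusted p of 0.00244 by edgeR. All 6 drug libraries were far above DMSO for cyp-13A6, which stood at 0.614, 0.628 and 0.827 CPM, and mebendazole gave the higher level in every library. In the cyp-14 family 4 of 5 genes were higher under oxfendazole and none lower, led by cyp-14A4 with 61.2, 47.4 and 44.2 CPM against 2.15, 1.79 and 2.24 CPM, a difference of 4.62 ± 0.44. In the cyp-33 family 8 of 18 were higher and 1 was lower (44.4% and 5.56%), against 22.3% and 20.1% of all genes. Its widest pair of groups was cyp-33C2, at 169, 147 and 193 CPM against 14.1, 8.29 and 13.6 CPM, a difference of 3.82 ± 0.37, and the lower gene was cyp-33B1, at -2.65 ± 0.44.

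The cyp-35 family, widely used in C. elegans as a reporter of foreign compounds, held all 3 patterns. Of its 10 members 5 were higher under oxfendazole (50%, against 22.3% of all genes), 1 was lower (10%, against 20.1%) and 4 were not called. cyp-35B2 had 50.3, 40.95 and 58.3 CPM under oxfendazole and 2.99, 2.76 and 2.96 CPM under mebendazole, a difference of 4.1 ± 0.66. cyp-35A3 differed by 3.24 ± 0.63, cyp-35A1 by 2.8 ± 0.28, cyp-35D1 by 2.08 ± 0.21 and cyp-35A5 by 1.19 ± 0.27. cyp-35A2 was the lower one, at 124, 117 and 123 CPM against 258, 184 and 283 CPM, a difference of -0.99 ± 0.27 and an adjusted p of 0.00979 by edgeR. cyp-35C1 reached 396, 359 and 336 CPM and 391, 277 and 494 CPM, from 7.47, 10.4 and 5.35 CPM in DMSO. Its groups overlapped and its difference was -0.09 ± 0.32, with a 95% interval of -0.77 to 0.60. For cyp-35A4, cyp-35B1 and cyp-35B3 every oxfendazole library was above every mebendazole library, and the differences of 1.03 ± 0.60, 0.77 ± 0.36 and 1.18 ± 0.72 did not pass the threshold. The cyp-35A genes are similar in sequence, and how reads that match several of them were counted is not given in the sources used here.

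**Figure D2:**
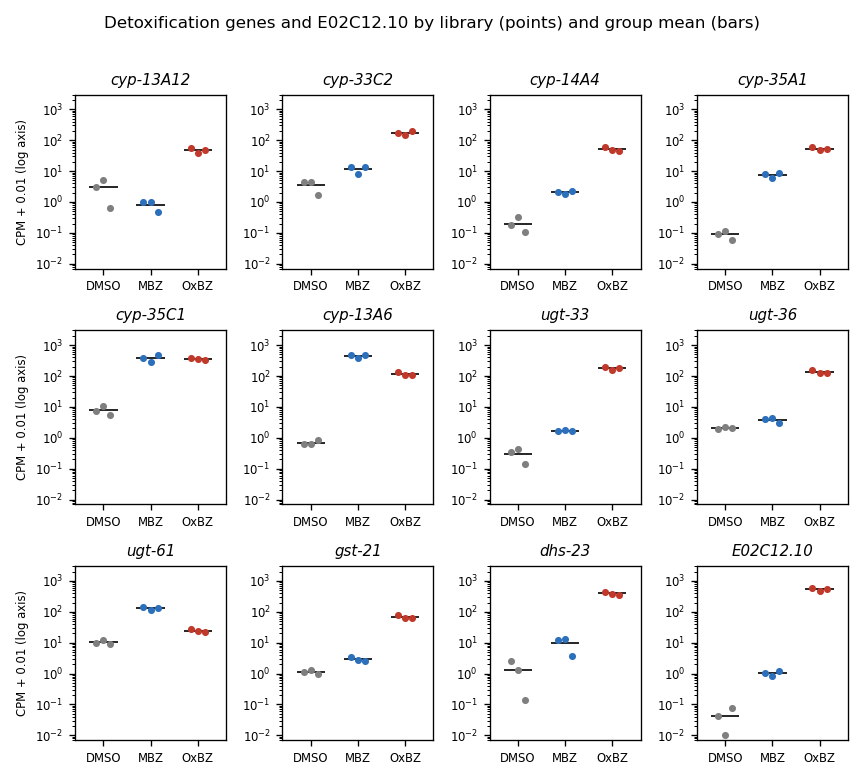
Levels in CPM plus 0.01 (vertical log axis) of 11 detoxification genes and E02C12.10 in each DMSO (grey), mebendazole (blue) and oxfendazole (red) library; points are libraries and bars are group means, 3 libraries a group. Oxfendazole points lie above mebendazole points except for cyp-35C1, where they overlap, and cyp-13A6 and ugt-61, where mebendazole points are higher.

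UGT genes were called in both directions, 20 of 66 higher and 17 lower (30.3% and 25.8%), shares close to those over all genes. The UGT list's median was -0.21 and its mean 0.27, and 17 of the called rises and 13 of the falls were over 2-fold. Without oxfendazole replicate 2 the lower count was 11. ugt-33 was low in DMSO, at 0.332, 0.430 and 0.130 CPM, and rose to 202, 161 and 178 CPM under oxfendazole while mebendazole gave 1.71, 1.75 and 1.67 CPM. The drugs differed by 6.72 ± 0.39 in ugt-33, with an adjusted p of 7.74e-08 by edgeR. ugt-36 showed the same order at 158, 123 and 122 CPM against 4.05, 4.21 and 2.92 CPM, a difference of 5.17 ± 0.21, and ugt-9 differed by 3.31 ± 0.27. The opposite order was found in ugt-61, with 27.5, 24.1 and 22.8 CPM under oxfendazole and 148, 118 and 138 CPM under mebendazole, a difference of -2.44 ± 0.11. DMSO libraries had 9.58, 11.9 and 9.31 CPM of ugt-61, below both drugs. ugt-47 and ugt-15 were lower under oxfendazole by -2.1 ± 0.48 and -2.9 ± 0.40, and for these genes mebendazole stood near DMSO, with means of 59.05 and 3.42 CPM against 55.7 and 4.78 CPM.

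Of 47 GST genes 10 were higher and 12 lower (21.3% and 25.5%), near the 22.3% and 20.1% of all genes, with a median of -0.39. The GST lower count was 7 without oxfendazole replicate 1 and 7 without mebendazole replicate 2. gst-21 stood at 77.6, 62.05 and 62.3 CPM under oxfendazole and 3.54, 2.77 and 2.58 CPM under mebendazole, a difference of 4.51 ± 0.19, and gst-33 at 208, 164 and 187 CPM against 11.5, 8.49 and 11.3 CPM, a difference of 4.16 ± 0.63. gst-44 differed by 4.09 ± 0.55 and gst-8 by 3.1 ± 0.68. Among the lower genes, gst-22 differed by -1.82 ± 0.20 and gstk-1, of the mitochondrial and peroxisomal kappa class, by -1.21 ± 0.27.

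Of 33 short-chain dehydrogenases 12 were higher and 6 lower (36.4% and 18.2%), against 22.3% and 20.1% of all genes. dhs-23 had the widest difference, with 454, 369 and 354 CPM under oxfendazole, 11.8, 13.2 and 3.74 CPM under mebendazole and 2.59, 1.31 and 0.130 CPM in DMSO. The drugs differed by 5.36 ± 0.66, with an adjusted p of 3.78e-05 by edgeR. stdh-2, of the steroid dehydrogenase family, differed by 5.01 ± 0.54, and dhs-14, at 489, 449 and 448 CPM against 110.1, 101 and 133 CPM, by 2.01 ± 0.24. dhs-20, dhs-2 and dhs-3 were lower, at -1.5 ± 0.38, -1.49 ± 0.33 and -1.37 ± 0.26. Of the flavin monooxygenases, which add oxygen to nitrogen and sulfur atoms, 2 of 5 were lower under oxfendazole and none higher. fmo-2 stood at 8.01, 9.09 and 10.01 CPM against 226, 230.2 and 219.8 CPM under mebendazole, a difference of -4.64 ± 0.51, and the DMSO libraries spread over 136, 42.9 and 236 CPM. fmo-5 stood at 17.97, 17.02 and 17.1 CPM against 73.3, 29.9 and 50.2 CPM, a difference of -1.56 ± 0.32. For fmo-5 oxfendazole lay at the DMSO level of 18.9, 12.61 and 16.8 CPM and mebendazole above it.

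Of 52 ABC transporter genes 18 were higher and 13 lower (34.6% and 25%), against 22.3% and 20.1% of all genes. Their median of 0.04 turned to -0.04 with upper-quartile factors and to -0.09 with library totals alone, while the mean over the list was -0.03. The higher count was 8 without oxfendazole replicate 1, 10 without oxfendazole replicate 2 and 10 with library totals alone. pgp-5, a P-glycoprotein, stood at 130.2, 135 and 137 CPM under oxfendazole and 29.8, 30.9 and 17.9 CPM under mebendazole, a difference of 2.35 ± 0.34, and haf-7 differed by 1.17 ± 0.18. pgp-11, pmp-5 and haf-9 were lower, at -2.02 ± 0.29, -1.7 ± 0.27 and -1.62 ± 0.32.

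The widest differences of the whole comparison lay outside these families. E02C12.10, of a cluster of predicted kinase-like genes, had 582, 488 and 544 CPM under oxfendazole, 1.03, 0.854 and 1.19 CPM under mebendazole and 0.0332, 0 and 0.0649 CPM in DMSO. The oxfendazole mean was 525-fold the mebendazole mean, the fitted difference was 9.04 ± 0.88, and the adjusted p by edgeR was 7.42e-06. Its neighbour in name E02C12.11 had 13.5, 12.8 and 14.01 CPM against 0, 0.0284 and 0.103 CPM, and E02C12.6 differed by 4.61 ± 0.52. In the same list of E02C12 and T16G1 genes 4 of 13 were higher and 2 lower (30.8% and 15.4%), against 22.3% and 20.1% of all genes. T16G1.7 stood at 74.3, 73.8 and 82.5 CPM under oxfendazole against 207, 162 and 179 CPM under mebendazole, a difference of -1.25 ± 0.24. ZK697.14 had 46.8, 30.2 and 41.2 CPM under oxfendazole. It was at or close to no reads under mebendazole, with 0.0711, 0.142 and 0.0880 CPM, and in DMSO, with 0.0996, 0.0717 and 0 CPM. Its level under the other drugs of the study was not examined.

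Single genes with known roles were among the wide rises. bcmo-1, which encodes a carotenoid-cleaving oxygenase, stood at 176, 123 and 172 CPM under oxfendazole and 1.25, 1.34 and 1.70 CPM under mebendazole, a difference of 6.78 ± 0.37. Within the sphingolipid genes, 3 of 23 higher and 10 lower, 2 glucocerebrosidase genes went opposite ways. gba-2 had 259, 213 and 212 CPM under oxfendazole against 12.8, 7.80 and 15.8 CPM, a difference of 4.23 ± 0.46, and gba-1 had 20.4, 27.4 and 27.8 CPM against 96.2, 91.8 and 117 CPM, a difference of -2.01 ± 0.19. cdr-4, named for its response to cadmium, stood at 652, 486 and 472 CPM against 53.01, 63.3 and 30.01 CPM, a difference of 3.46 ± 0.51. cdr-1, named for the same response, had 162, 136 and 138 CPM and 245, 196 and 219.5 CPM, with every mebendazole library higher and an adjusted p of 0.0544 by edgeR, which missed the threshold. Infection response genes were higher in 4 of 8 cases, 2 of 8 without either oxfendazole replicate 1 or mebendazole replicate 3, with irg-1 at 3.28 ± 0.42 and irg-2 at 3.19 ± 0.38. irg-2 levels were 209, 173 and 171 CPM under oxfendazole and 20.02, 15.8 and 24.8 CPM under mebendazole. irg-8 was lower under oxfendazole, at 18.4, 16.7 and 14.8 CPM against 96.7, 98.4 and 55.3 CPM.

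Most tubulin genes, a family that includes the beta-tubulins bound by these drugs, differed by less than 2-fold. Of 16 tubulin genes 7 were higher and 3 lower under oxfendazole (43.8% and 18.8%), against 22.3% and 20.1% of all genes. The main embryonic and germline beta-tubulins tbb-1 and tbb-2 were higher by 0.59 ± 0.06 and 0.61 ± 0.06, and the alpha-tubulins tba-1 and tba-2 by 0.54 ± 0.07 and 0.53 ± 0.06. tbb-2 had 1982, 1972 and 1830.0 CPM under oxfendazole and 1341, 1178 and 1279 CPM under mebendazole, which did not overlap, and 1386, 1362 and 1300.0 CPM in DMSO. tbb-6, a divergent beta-tubulin, was the gene called higher by over 2-fold, at 115, 101 and 99.2 CPM against 18.7, 15.6 and 10.1 CPM and 2.49, 5.88 and 2.29 CPM in DMSO. The drugs differed in tbb-6 by 2.83 ± 0.51, with an adjusted p of 0.000614 by edgeR. tbg-1, the gamma-tubulin of centrosomes, was higher by 0.3 ± 0.05, a call that was lost with library totals alone. mec-12, the alpha-tubulin of touch receptor neurons, was lower, at -0.55 ± 0.10, and its neuronal partner mec-7 was at -0.33 ± 0.14 without passing the threshold. tba-4, tba-5 and tba-6 were called at 0.76 ± 0.29, -1.27 ± 0.40 and -1.49 ± 0.49, and each call was lost without single libraries. The adjusted p without 1 library reached 0.16 for tba-4, 0.0731 for tba-5 and 0.0969 for tba-6. The tubulin lower count was 1 without oxfendazole replicate 1, oxfendazole replicate 2 or mebendazole replicate 3. tba-7 at 0.91 ± 0.37, tba-9 at -0.59 ± 0.27, tbb-4 at -0.71 ± 0.60 and tba-8 at -0.64 ± 0.68 were not called.

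Genes that fold tubulin and other proteins were higher with little spread. Among 20 tested genes of the CCT chaperonin, prefoldin and the tubulin cofactors, 18 were higher under oxfendazole and none lower, with a median of 0.43. cct-1 stood at 528, 508 and 443 CPM under oxfendazole against 317, 297 and 299 CPM under mebendazole, a difference of 0.7 ± 0.07, and the mebendazole libraries lay at the DMSO level of 324, 332 and 304 CPM. In the list of cytosolic chaperones, which shares the CCT subunits, 18 of 22 were higher and none lower. The Hsp70 gene hsp-1 had 3666, 3533 and 3091 CPM against 2383, 1749 and 2013 CPM, a difference of 0.74 ± 0.11, and hsp-110 and the kinase co-chaperone cdc-37 differed by 0.72 ± 0.15 and 0.84 ± 0.09. Small heat shock proteins showed no such shift, with 1 of 14 higher and 2 lower. Of 27 genes of protein folding in the endoplasmic reticulum 7 were higher and 1 lower (25.9% and 3.70%), against 22.3% and 20.1% of all genes. With library totals alone 2 of them were higher.

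Every proteasome subunit tested was higher under oxfendazole, 33 of 33, against 22.3% of all genes. The differences ran from 0.47 to 1.04 with a median of 0.61, and in all 33 genes each oxfendazole library was above each mebendazole library. With library totals alone or with upper-quartile factors, 32 of the 33 were called. The 7 alpha subunits of the core particle ran from 0.50 (pas-7) to 0.71 (pas-2), the 7 beta subunits from 0.60 (pbs-3) to 1.04 (pbs-2), the 6 ATPase subunits of the regulatory particle from 0.49 (rpt-1) to 0.65 (rpt-5) and its 13 other subunits from 0.47 (rpn-6.1) to 0.73 (rpn-1). pbs-2 had 269, 268 and 233 CPM under oxfendazole and 131, 119 and 125 CPM under mebendazole, a difference of 1.04 ± 0.06 with an adjusted p of 1.07e-07 by edgeR. Against DMSO, 32 subunits rose under oxfendazole and none was called under mebendazole. Proteasome genes took 0.83% ± 0.0395 (SD, n = 3) of counts under oxfendazole and 0.594% ± 0.0221 (SD, n = 3) under mebendazole. The groups did not overlap, and the exact permutation p was 0.1, the smallest that 3 against 3 libraries allow (0.233 adjusted over 7 lists).

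Genes of protein synthesis were also higher, by less. Of 32 aminoacyl-tRNA synthetases 30 were higher (93.75%, against 22.3% of all genes) and none lower, with a median of 0.46. The gene of the glycyl enzyme, gars-1, stood at 292, 282 and 253 CPM against 168, 147 and 146 CPM, a difference of 0.84 ± 0.07. Mitochondrial ribosomal proteins were higher in 62 of 69 cases (89.9%), and cytosolic ribosomal proteins in 70 of 81 (86.4%) with 2 lower, at medians of 0.31 and 0.26. These small shifts moved with the scaling. With library totals alone 29 mitochondrial and 30 cytosolic ribosomal genes were higher. The cytosolic count was 44 with upper-quartile factors, 45 without oxfendazole replicate 1 and 42 without oxfendazole replicate 2. Their share of counts was 8.74% ± 0.399 (SD, n = 3) under oxfendazole and 7.86% ± 0.538 (SD, n = 3) under mebendazole, with p = 0.2 (0.35 adjusted) in the exact permutation test.

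**Figure D3:**
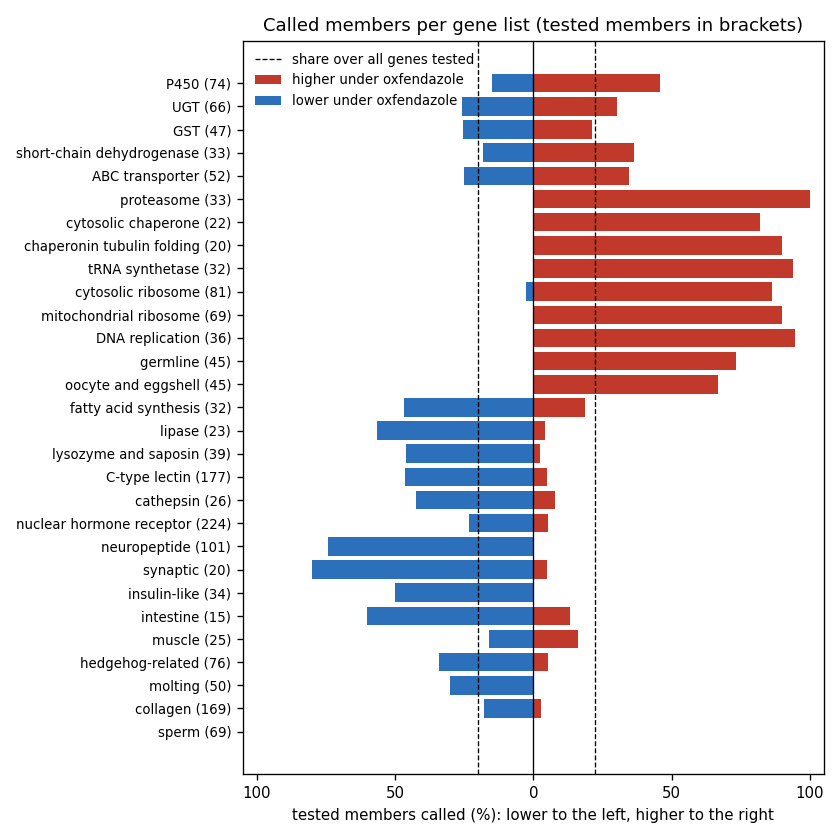
Share of tested members called higher (red, right) or lower (blue, left) under oxfendazole, in percent, for 29 gene lists with the number of tested members in brackets; dashed lines are the shares over all genes tested, 22.3% and 20.1%. The proteasome, chaperone, tRNA synthetase, ribosome and DNA replication lists reach furthest to the right and the neuropeptide, synaptic and intestine lists furthest to the left.

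Germline and oocyte transcripts followed the same direction. Of 36 DNA replication genes 34 were higher (94.4%), of 45 germline genes 33 (73.3%), and of 45 oocyte and eggshell genes 30 (66.7%). The shares over all genes were 22.3% higher and 20.1% lower, and none of the 3 lists had a lower call by edgeR. Their medians were 0.37, 0.33 and 0.35. With library totals alone the replication and germline counts were 18 each, and with totals or upper-quartile factors 1 germline gene and 2 oocyte and eggshell genes were lower. The fit to the 6 libraries alone called 3 oocyte and eggshell genes lower, and the fit without DMSO replicate 2 and replicate 2 of ABZ, another drug group of the study, called 2. mcm-7, a subunit of the replicative helicase, stood at 586, 573 and 562 CPM under oxfendazole and 423, 366 and 372 CPM under mebendazole, a difference of 0.57 ± 0.07, and pgl-3, a component of germ granules, differed by 0.53 ± 0.14. cpg-1, a chondroitin proteoglycan of the eggshell, was the exception in size, at 2370.0, 2325 and 1994 CPM against 1294, 937 and 894 CPM, a difference of 1.1 ± 0.18. In whole worms, a change in the number of cells of a type and a change in RNA per cell, such as fewer cells and less RNA per cell, cannot be told apart. None of the 69 sperm genes was called by edgeR in the fit to 18 libraries or by DESeq2, 0 had an unadjusted edgeR p under 0.05, and 22 of them had every oxfendazole library below every mebendazole library. Sperm genes called lower by edgeR numbered 10 in the fit to the 6 libraries alone and 12 in the fit without DMSO replicate 2 and ABZ replicate 2. The sperm list's median was -0.32 and became 0.03 without oxfendazole replicate 3, and its share of counts ran from 0.0345% to 0.0874% under oxfendazole and from 0.0887% to 0.097% under mebendazole.

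Yolk genes spread widely within the mebendazole group. vit-2, which encodes a yolk precursor made in the adult intestine, had 15770.0, 15280.0 and 14560.0 CPM under oxfendazole and 32830.0, 19420.0 and 11430.0 CPM under mebendazole. The groups overlapped, the difference was -0.48 ± 0.39, and the 95% interval was -1.31 to 0.35. vit-6 gave -0.36 ± 0.55. vit-3 was the called member, at 2336, 2232 and 1992 CPM against 608, 386 and 130.0 CPM, with a difference of 2.54 ± 0.80. It is nearly identical in sequence to vit-4 and vit-5, which were not called, so its counts are uncertain, and without mebendazole replicate 2 or 3 its call was lost, at an adjusted p of up to 0.0739. The yolk receptor gene rme-2, expressed in oocytes, was higher by 0.58 ± 0.12.

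Lipases and genes of fatty acid synthesis were lower under oxfendazole in 13 of 23 and 15 of 32 cases, against 20.1% of all genes. Of the 23 lipases 1 was higher, with a median of -1.39, and 12 of the falls were over 2-fold. lipl-3, a lysosomal lipase induced by fasting, stood at 1.67, 1.58 and 2.34 CPM under oxfendazole, 50.2, 46.9 and 81.99 CPM under mebendazole and 68.2, 48.6 and 63.1 CPM in DMSO. The mebendazole mean was 31.9-fold the oxfendazole mean, and the fitted difference was -5.0 ± 0.33 with an adjusted p of 3.07e-07 by edgeR. Its relative lipl-1 stood at 8.12, 10.9 and 14.9 CPM against 192, 192 and 218 CPM, a difference of -4.15 ± 0.41. Of 32 genes of fatty acid synthesis 15 were lower, or 9 without oxfendazole replicate 2, and 6 were higher, or 3 with library totals alone. The desaturases fat-2 and fat-3 and the elongase elo-2 were lower, at -1.26 ± 0.29, -1.71 ± 0.38 and -1.49 ± 0.28. fat-3 levels were 143, 145 and 155 CPM against 443, 366 and 638 CPM. The delta-9 desaturase fat-7 went the other way, at 72.5, 68.4 and 32.4 CPM under oxfendazole and 8.23, 11.8 and 10.9 CPM under mebendazole, a difference of 2.48 ± 0.52. The oxfendazole libraries lay within the DMSO range of 18.4, 82.6 and 23.9 CPM. Of 63 genes of fatty acid activation and beta-oxidation 16 were higher and 19 lower (25.4% and 30.2%), and 10 higher with library totals alone. acs-2, an acyl-CoA synthetase induced by fasting, was higher at 417, 366 and 286 CPM against 108, 87.1 and 89.5 CPM, a difference of 1.91 ± 0.48, while cpt-5 and the peroxisomal oxidase gene acox-1.5 were lower, at -3.07 ± 0.50 and -2.38 ± 0.27.

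Among genes of innate defence, lectins and lysozymes were lower in 46.3% and 46.2% of cases, against 20.1% of all genes, while the epidermal antimicrobial peptide genes of the cnc, nlp, fip and fipr families were lower in 8 of 50 cases (16%) and higher in 4. The lower count of the peptides was 4 without oxfendazole replicate 1 or 3 and 5 without mebendazole replicate 3, and the higher count was 7 in the fit to the 6 libraries alone. Infection response genes, with 4 of 8 higher, are described above. C-type lectins, secreted or membrane sugar-binding proteins of which many are induced by bacteria, were lower in 82 of 177 cases and higher in 9, with a median of -1.22 and 76 falls over 2-fold. In 3 lectins no read was counted under oxfendazole, and the median was the same with these set to a floor of 3 counts over the group. clec-70 had 0.751, 0.801 and 0.498 CPM under oxfendazole, 40.5, 42.4 and 16.3 CPM under mebendazole and 90.7, 183 and 33.2 CPM in DMSO. The drugs differed by -5.6 ± 0.78 in clec-70, and clec-76 and clec-4 were lower, at -4.7 ± 0.42 and -4.6 ± 0.68. The lectin share of counts was 0.443% ± 0.0121 (SD, n = 3) under oxfendazole and 0.642% ± 0.0558 (SD, n = 3) under mebendazole, with an exact permutation p of 0.1 (0.233 adjusted). Lysozymes and saposin-like proteins were lower in 18 of 39 cases and higher in 1. lys-1 stood at 132, 143 and 122 CPM against 815, 785 and 588 CPM, a difference of -2.46 ± 0.36, and lys-4 at -1.99 ± 0.17, while the higher gene was spp-17, at 122, 128 and 113 CPM against 6.97, 7.38 and 8.82 CPM. Of 10 genes named for lying downstream of the transcription factor DAF-16, 5 were lower, among them dod-22 at 0.410, 0.331 and 0.343 CPM against 8.29, 12.04 and 7.90 CPM, a difference of -4.7 ± 0.37. Cathepsin-type proteases were lower in 11 of 26 cases (42.3%) and higher in 2 (7.69%). cpr-2, cpr-4 and cpr-1 were lower, at -6.0 ± 0.90, -1.74 ± 0.25 and -1.21 ± 0.15.

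**Figure D4:**
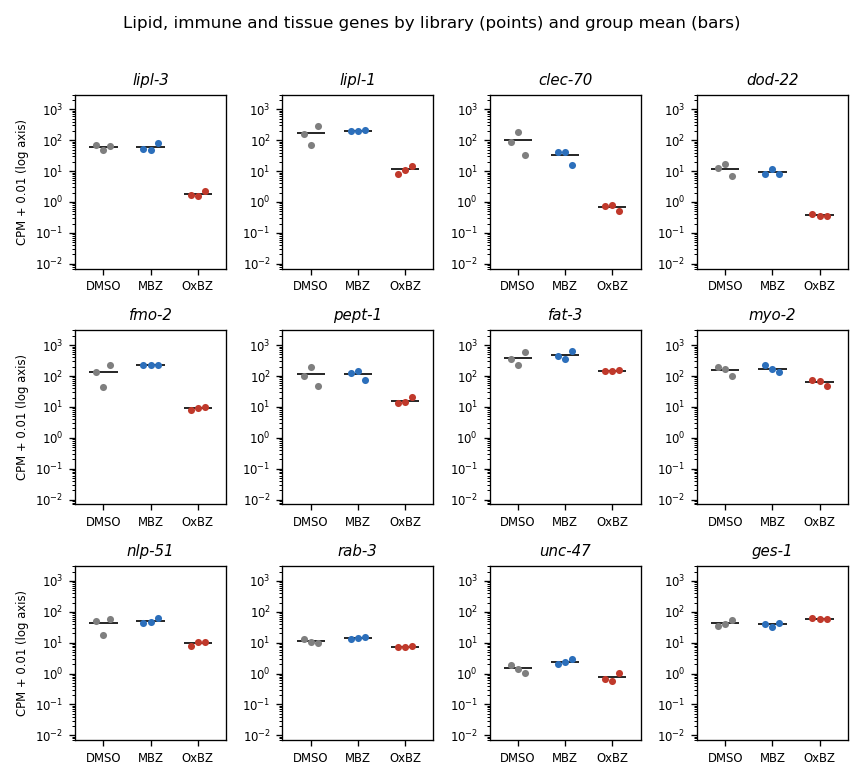
Levels in CPM plus 0.01 (vertical log axis) of 12 lipid, immune and tissue genes in each DMSO (grey), mebendazole (blue) and oxfendazole (red) library; points are libraries and bars are group means, 3 libraries a group. Oxfendazole points lie below all mebendazole points in 11 genes and above them in ges-1.

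Neuronal transcripts were lower under oxfendazole across most of the lists that mark them. Of 101 neuropeptide genes 75 were lower and none higher, against 20.1% and 22.3% of all genes, with a median of -0.99 and 45 falls over 2-fold. This list holds 31 flp and 70 nlp genes by symbol, so nlp genes of the epidermal peptide list are among them and not every member marks neurons. nlp-51 had 7.68, 10.3 and 10.4 CPM under oxfendazole and 43.4, 46.1 and 62.2 CPM under mebendazole, a difference of -2.42 ± 0.37, and flp-34 differed by -1.52 ± 0.23. Of 20 synaptic genes 16 were lower and 1 higher. rab-3, a small GTPase of synaptic vesicles, stood at 7.42, 7.32 and 7.68 CPM against 13.7, 13.9 and 14.9 CPM, a difference of -0.92 ± 0.12 with an adjusted p of 5.45e-05 by edgeR. unc-47, the GABA transporter of synaptic vesicles, and eat-4, the glutamate transporter, were lower, at -1.69 ± 0.26 and -1.21 ± 0.22, and the dense-core vesicle gene ida-1 at -1.18 ± 0.10. snb-1, the synaptobrevin gene, was the higher one, at 0.4 ± 0.08, a call lost with library totals alone. Synaptic genes together took 0.0611% to 0.0639% of counts under oxfendazole, 0.087% to 0.11% under mebendazole and 0.065% to 0.0824% in DMSO, and none was without reads in any group. Insulin-like peptide genes were lower in 17 of 34 cases and higher in none. This count was 9 without oxfendazole replicate 1, 10 without oxfendazole replicate 3, 10 without mebendazole replicate 2 and 8 without mebendazole replicate 3.

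Intestinal markers did not move together. Of 15 markers 9 were lower and 2 higher, and their summed share of counts was 0.318% to 0.323% under oxfendazole, 0.526% to 0.613% under mebendazole and 0.639% to 0.781% in DMSO. The peptide transporter gene pept-1 had 13.7, 14.2 and 20.3 CPM under oxfendazole and 129.7, 144 and 76.7 CPM under mebendazole, a difference of -2.87 ± 0.42, and pho-1, ifb-2 and nhx-2 were lower, at -2.33 ± 0.61, -1.49 ± 0.29 and -1.45 ± 0.25. ges-1, the gut esterase, was higher at 61.98, 60.4 and 56.5 CPM against 40.4, 33.4 and 43.1 CPM, a difference of 0.61 ± 0.12. The part of intestinal RNA content in the differences of detoxification, lipid and defence genes was not tested. Of 25 muscle genes 4 were higher and 4 lower (16% and 16%, against 22.3% and 20.1% of all genes), counts that changed with the fit. The lower count was 11 in the fit to the 6 libraries alone, 8 with library totals alone and 7 without DMSO replicate 2 and ABZ replicate 2, with 2, 1 and 4 higher. The pharyngeal myosins myo-1 and myo-2 were lower, at -1.57 ± 0.40 and -1.46 ± 0.33 and the body wall myosin myo-3 at -0.92 ± 0.20, while unc-54, the major body wall myosin, overlapped between the groups at -0.22 ± 0.43, with an interval of -1.15 to 0.71. Muscle genes took 0.909% to 0.958% of counts under oxfendazole and 1.12% to 1.19% under mebendazole. The higher count also rested on single libraries, with 1 call without oxfendazole replicate 1 or 2 or mebendazole replicate 2 or 3 and 2 without mebendazole replicate 1.

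**Figure D5:**
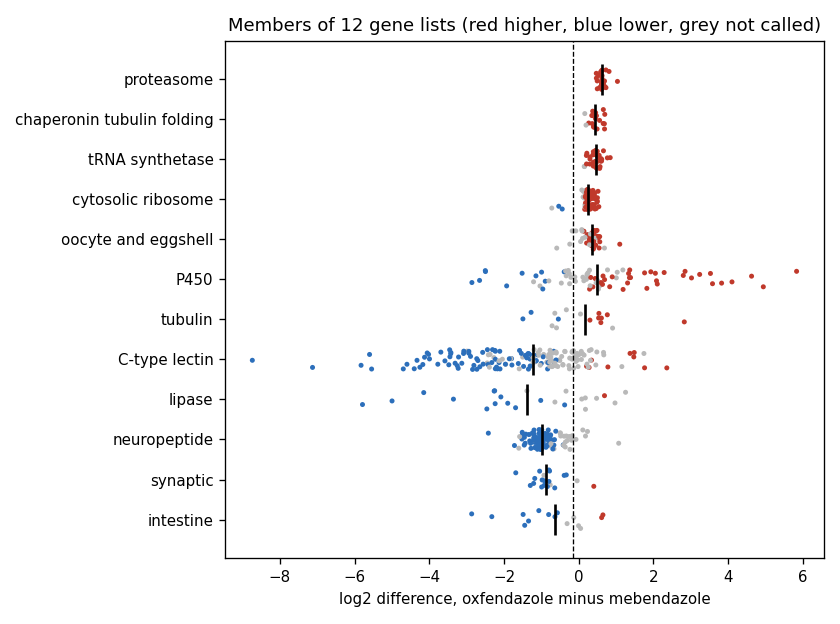
Log2 difference of oxfendazole minus mebendazole (horizontal axis) for each tested member of 12 gene lists; red points were called higher, blue points lower and grey points not called, heavy bars are list medians and the dashed line is the median of all genes, -0.14. Proteasome points form a narrow band around 0.61, whereas P450 points spread on both sides of 0.

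Counts of called collagen and hedgehog-related genes changed with single libraries, and those of collagens also with the fit. Collagens took 2.02% ± 0.0585 (SD, n = 3) of counts under oxfendazole and 2.02% ± 0.274 (SD, n = 3) under mebendazole, with p = 1 (1 adjusted) in the exact permutation test. Of 169 collagen genes 30 were lower and 5 higher (17.8% and 2.96%), against 20.1% and 22.3% of all genes. The fit to the 6 libraries alone called 46 lower and 15 higher, and the fit without DMSO replicate 2 and ABZ replicate 2 called 46 lower and 11 higher. Without oxfendazole replicate 1 the lower count was 17, and without oxfendazole replicate 1 or 2 or mebendazole replicate 1 or 2 none was higher, with 2 higher without mebendazole replicate 3. Many Hedgehog-related and Patched-related genes are expressed in the skin and cycle with the molt. Of 76 genes of these families 26 were lower and 4 higher (34.2% and 5.26%), against 20.1% and 22.3% of all genes. The lower count was 15 without oxfendazole replicate 1 and 11 without oxfendazole replicate 2, and the higher count was 2 without oxfendazole replicate 1 or mebendazole replicate 2. Against DMSO the median of these families was 0.70 under mebendazole, with 3 genes called higher and none lower. Under oxfendazole it was -0.39, with 4 called higher and 12 lower. Molting genes were lower in 15 of 50 cases (30%) and higher in none. Hypodermal markers were lower in 2 of 10 cases (20%), the share over all genes. The marker dpy-7, a collagen made before each molt, stood at 12.3, 13.9 and 44.1 CPM under oxfendazole, with replicate 3 as high as the mebendazole libraries at 34.8, 45.1 and 49.8 CPM.

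Large families of regulators were called lower at shares near the 20.1% of all genes. Of 224 nuclear hormone receptor genes, a family that includes sensors of foreign compounds, 52 were lower and 12 higher (23.2% and 5.36%), with a median of -0.27. The higher count was 7 with library totals alone and 19 with DESeq2. nhr-247, nhr-99 and nhr-55 were lower, at -3.62 ± 0.76, -2.84 ± 0.23 and -2.43 ± 0.17, and nhr-237 was higher by 2.08 ± 0.21. Of 64 MATH and BATH domain genes, which include adaptors of ubiquitin ligases, 16 were lower and 11 higher (25% and 17.2%), or 3 higher with library totals alone. math-38 had 2.51, 2.61 and 2.66 CPM under oxfendazole, 41.8, 34.2 and 39.5 CPM under mebendazole and 32.3, 37.05 and 34.8 CPM in DMSO, a difference between the drugs of -3.89 ± 0.13 with an adjusted p of 2.75e-10 by edgeR.

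A missed threshold did not amount to likeness of the drugs. Among the 10065 genes not called, the 95% interval of the difference lay within 2-fold either way for 4573, and for 5490 it reached beyond, with no interval for 2. Over called and uncalled genes the interval lay within 2-fold for 8561, or 49.0% of those tested. Genes bounded in this way included ben-1 and cyp-35C1, while tbb-4, with an interval of -1.99 to 0.57, and vit-6, with -1.53 to 0.81, were not bounded. Library groups did not overlap for 3767 of the genes called higher and 3456 of those called lower.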

How the data were processed

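Total RNA of the 18 samples was sequenced by the authors as paired reads of 100 nt, per the labels' protocols. The authors deposited 1 table of raw read counts for all genes, and featureCounts of Subread 1.4.6 is listed in the submitters' processing notes. No source used here gives the build, annotation, strand setting or treatment of reads with several matches, so coordinates are left out. Groups came from the sample titles. In 1 oxfendazole sample the drug label is shortened.

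Symbols were matched by gene identifier for 19628 of 20395 genes. The filter filterByExpr (minimum count 10) removed 2911 genes. In R 4.3.3, edgeR 4.0.16 fitted 1 robust quasi-likelihood model with TMM factors and a mean per group to all 18 libraries, with 12 residual degrees of freedom, and p-values were adjusted by Benjamini-Hochberg. The edgeR test gives no SE, so the SE was taken as the absolute log2 difference over the square root of F, and 95% intervals rest on it. Lists were defined by symbol patterns, some of which overlap, and carry counts and medians with no test of the list. Shares of counts used exact permutation over the 6 libraries. Intervals and the worth of 1 read cover counting and library spread only, since reads carried no molecular identifiers. DESeq2 1.42.0 was tried as another test. The scripts were tested on simulated counts.

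Named genes were the 12 largest differences each way, up to 4 called members of each list and direction, all tubulins and cyp-35 genes, the 5 largest rises over DMSO under each drug and 8 tissue markers, from which the text gives those with a role or a wide difference. For both sets of largest differences, genes needed a mean of at least 1 CPM in either group and libraries that did not overlap. Members and lists were chosen with earlier results of these data known.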

Additional observations from a re-analysis of the deposited data

How the results depend on the processing

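Both counts of called genes stayed within 1.5 times of 3899 higher and 3520 lower under DESeq2 (4620 and 3768), median-of-ratios factors, upper-quartile factors (2990 and 3962), no filter, a fit to the 6 libraries alone (3715 and 4374), a fit without DMSO replicate 2 and ABZ replicate 2 (4034 and 5069), and without each single library. Leaving out 1 library gave 3041 to 3890 genes higher and 2524 to 3532 lower. Library totals alone gave 2074 higher, and a test against 2-fold gave 102 higher and 250 lower, as its construction requires larger differences. No gene was called in opposite directions under any of these settings. Same-numbered libraries of the 2 drugs deviated together with correlations of 0.149, -0.00959 and 0.127. Those for replicates 1 and 3 were the highest of all pairs, and unlike-numbered pairs ran from -0.166 to 0.0857. Oxfendazole replicate 2 was closest to mebendazole replicate 1. The labels name no batch, and the main fit did not pair libraries by number. Whether libraries of the same number or drug shared a culture or batch was not tested, so drug and batch cannot be told apart. With a replicate block the 6 libraries gave 3540 higher and 4468 lower, with 37 cytosolic ribosomal genes higher, with 54 collagens lower and 22 higher, and with 12 sperm, 10 muscle and 2 oocyte and eggshell genes lower. In the fit to the 6 libraries alone, 8 of the genes named for lying downstream of DAF-16 were lower and 6 sphingolipid genes higher. Of the 131 genes whose values the text gives, 62 lost their call in the test against 2-fold, 1 with upper-quartile factors, 3 with library totals alone (tba-4, tbg-1 and snb-1) and 4 without mebendazole replicate 3 (tba-4, tba-5, tba-6 and vit-3); the cause was not tested. Differences in the share of counts moved by less than 1 SD under every alternative run, but in this design no p can pass 0.05. Sparse genes are limited by depth, since 1 read is 0.0169 CPM before scaling in the smallest of the 6 libraries.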

Other observations

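Gene families were also counted by symbol prefix, for every prefix with at least 15 tested genes. Those below were chosen after their values were seen, so no test is given and the counts stand against 20.1% of all genes lower. Among FMRFamide-like peptide genes (flp) 30 of 31 were lower, and among other neuropeptide-like genes (nlp) 45 of 70. These 2 families make up the neuropeptide list above, so their counts split its 75 calls and add none. Ligand-gated ion channel genes (lgc) were lower in 31 of 48 cases, or 18 without oxfendazole replicate 2, nicotinic acetylcholine receptor genes (acr) in 12 of 21, neuropeptide receptor genes (npr) in 20 of 43 and potassium channel genes of the twk family in 19 of 44. Globin genes (glb) were lower in 19 of 34 cases. Large shares of lower calls were not confined to these families, with 12 of 18 nspc and 14 of 26 best genes lower. In some other families the share of lower calls was nearer to that over all genes. The counts were 8 of 39 str, 6 of 30 srh, 7 of 24 srx, 2 of 21 srd and 2 of 16 sri genes, all named as chemoreceptors, and 4 of 18 G protein alpha subunit genes (gpa). Fewer calls did not always mean smaller differences. The medians were -1.01 for str, -0.99 for srh, -0.39 for srx, -0.48 for srd, -0.54 for sri and -0.39 for gpa, against -1.03 for flp and -0.80 for lgc.

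Housekeeping families were higher by small amounts, and their counts stand against 22.3% of all genes higher. Translation initiation factor genes (eif) were higher in 23 of 25 cases with a median of 0.39, and in 20 with library totals alone. Vacuolar sorting genes (vps) were higher in 22 of 31 cases, J-domain co-chaperone genes (dnj) in 21 of 29 and nuclear pore genes (npp) in 19 of 26. With library totals alone these counts were 11, 9 and 13, and the dnj count was 9 without oxfendazole replicate 1.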
